A study of Mus musculus with 16 samples.

Results

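The miRNAs described here are 6 mature products of the miR-26 and miR-101 families that the array lists by name: mmu-miR-26a-5p, mmu-miR-26b-5p, mmu-miR-26b-3p, mmu-miR-101a-3p, mmu-miR-101a-5p and mmu-miR-101b-3p. The species prefix mmu is left out from here on. They were chosen by exact name and are 6 of the 1881 mouse miRNAs on the array. A miRNA was tested if the scanner software called it detected on at least 8 of 16 arrays, which kept 5 of the 6 members and 495 miRNAs in all. The suffixes 5p and 3p name the arm of the hairpin precursor from which a mature miRNA is cut.

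The arrays measured miRNAs in total RNA from the lateral ventricle (LV) wall, the brain tissue that lines the fluid-filled lateral ventricles, of 8-month-old male mice. There were 8 WT mice and 8 littermates heterozygous for Dgcr8 (Dgcr8+/-), labelled as biological replicates, with 1 array each and no treatment. Dgcr8+/- mice carry 1 disrupted copy of Dgcr8 in every cell from the germline on, so the genotype is not confined to the ependymal cells of the LV wall. Dgcr8 encodes the RNA-binding partner of Drosha in the complex that cuts miRNA hairpins from their primary transcripts, and the comparison of the genotypes asks which miRNAs change when its dose is lowered. The array carries no probe for the Dgcr8 mRNA, so the genotype labels could not be checked by the targeted gene.

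miR-26 and miR-101 are among the best known repressors of Ezh2, the methyltransferase of Polycomb repressive complex 2, which silences genes by trimethylating histone H3 on lysine 27. A miRNA finds its targets mainly through its seed, a short stretch near its 5′ end that pairs with sites in the target mRNA. In neural tissue the miR-26 genes are known for their place in introns of the Ctdsp phosphatase genes, which act in the REST pathway that holds back neuronal genes, and miR-101 is known as a brain-rich family. Ezh2 mRNA and protein were not measured by these arrays.

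The mature sequences are shown because the paralogs within each family differ by few bases. They are from RefSeq (build GRCm38.p6, all 6 members matched), written 5′ to 3′, and capitals mark the seed, bases 2 to 8 counted from the 5′ end.
miR-26a-5p: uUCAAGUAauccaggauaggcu
miR-26b-5p: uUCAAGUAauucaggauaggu
miR-26b-3p: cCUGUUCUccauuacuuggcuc
miR-101a-3p: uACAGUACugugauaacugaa
miR-101b-3p: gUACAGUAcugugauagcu
miR-101a-5p: uCAGUUAUcacagugcugaugc
miR-101c: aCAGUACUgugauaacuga

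miR-26a-5p and miR-26b-5p share their whole seed and, over 21 aligned bases, differ by the substitutions C11U and C21U, written as the base of miR-26a-5p, its position and the base of miR-26b-5p. miR-101a-3p and miR-101b-3p differ by A16G over 18 aligned bases, but RefSeq starts miR-101b-3p 1 base earlier, so the same letters fall 1 position later and the seeds are offset. miR-101c, which is not one of the 6 members, is shown because all 19 of its bases lie inside miR-101a-3p. Its signal is therefore given below beside that of miR-101a-3p.

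miR-26a-5p is encoded at 2 loci, at chr9:119031811-119031832 on the plus strand inside Ctdspl and at chr10:126995543-126995564 on the plus strand inside Ctdsp2. The array reads their identical products as a single value. miR-26b-5p lies at chr1:74394324-74394344 and miR-26b-3p at chr1:74394360-74394381, both on the plus strand inside Ctdsp1. miR-101a-3p (chr4:101346957-101346977) and miR-101a-5p (chr4:101346993-101347014) are on the minus strand inside the noncoding gene E130102H24Rik. miR-101b-3p (chr19:29135338-29135356) is on the plus strand inside Rcl1.

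The hairpins that carry both measured arms are shown with the mature arms in capitals, 5p first. The Mir26b hairpin has 85 bases and the Mir101a hairpin 83.
Mir26b: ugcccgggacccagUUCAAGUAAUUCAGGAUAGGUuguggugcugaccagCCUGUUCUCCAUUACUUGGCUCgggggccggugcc
Mir101a: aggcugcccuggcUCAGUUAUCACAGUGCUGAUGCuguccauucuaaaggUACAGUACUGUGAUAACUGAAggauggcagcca

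Levels are given on the log2 scale after quantile normalization, which gives every array the same set of values, so a genotype difference is read against the rest of the miRNAs on that array. Before that step the Dgcr8+/- arrays were dimmer, and the summed signal of all mouse spots was 21545358 to 29763412 in WT mice and 18528866 to 23440575 in Dgcr8+/- mice. The labelling spike-ins, synthetic RNAs added before labelling, differed by -0.0068 on the log2 scale (exact permutation p = 0.949, 8 against 8 mice). Dgcr8+/- replicate 2 stood apart, with the lowest summed signal, the fewest detected miRNAs (467) and hybridisation spike-ins at 12.7 on the log2 scale, against a Dgcr8+/- median of 14.0. WT replicate 6 stood apart the other way, with hybridisation spike-ins at 15.1 against a WT median of 14.1, and had the lowest summed signal of the WT mice. The arrays were on 2 slides that were unequal in genotype, with 6 WT and 2 Dgcr8+/- mice on slide 1 and 2 WT and 6 Dgcr8+/- mice on slide 2. In this bulk tissue, fewer cells of a type and less RNA per cell cannot be told apart.

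Of the 5 tested members, miR-101a-3p was higher in Dgcr8+/- mice after quantile normalization (and lower without it) and no other member passed, at an adjusted p under 0.05 (limma with Benjamini-Hochberg adjustment over all 495 miRNAs). Over all tested miRNAs the share that passed was 56.2%, with 28.3% higher and 27.9% lower. The members' count of 1 in 5 is read against that share, which it does not exceed.

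**Figure D1:**
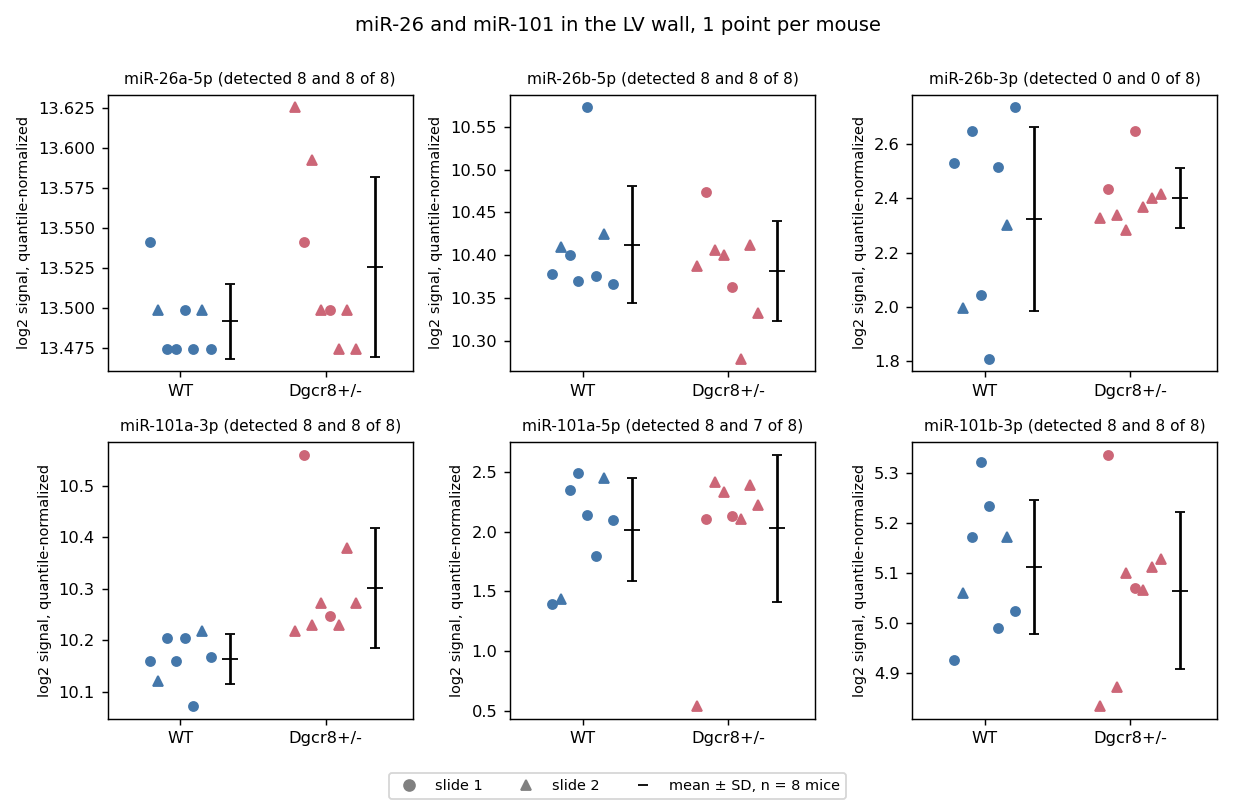
Quantile-normalized log2 signal (vertical axes, a separate scale for each panel) of the 6 members in 8 WT (blue) and 8 Dgcr8+/- (red) mice, 1 point per mouse, circles for slide 1 and triangles for slide 2, with the mean ± SD beside each group. On this scale 7 of 8 Dgcr8+/- mice in miR-101a-3p lie above the highest WT mouse, in the other panels the genotypes overlap, and miR-26b-3p was detected on no array.

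miR-101a-3p, the main arm of the Mir101a hairpin, was the member with a genotype difference past the threshold. Its log2 signal was lowest at 10.07, median 10.16 and highest at 10.22 in WT mice. In Dgcr8+/- mice it was lowest at 10.22, median 10.26 and highest at 10.56, the last in replicate 2. The genotypes met at a single value, since the lowest Dgcr8+/- mouse equalled the highest WT mouse and the other 7 lay above it. This tie arose in quantile normalization, after which each probe of miR-101a-3p took 9 distinct values over 16 arrays. Before it the tied mice were at 1746 (WT replicate 7) and 870 (Dgcr8+/- replicate 1) signal units. No member had fully separated genotypes, beside 24.2% of all tested miRNAs that did.

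The means of miR-101a-3p were 10.16 ± 0.05 (SD, n = 8) in WT and 10.30 ± 0.12 (SD, n = 8) in Dgcr8+/- mice. The log2 fold change was 0.14 with a standard error of 0.05 (adjusted p = 0.0258, limma), a level 1.1-fold that of WT with a 95% interval of 2.32% to 18.3% higher. This was a small change for the tissue, at place 357 of 495 by size, and the median size of the log2 fold change over all tested miRNAs was 0.27. Without Dgcr8+/- replicate 2 it was 0.10 (adjusted p = 0.0108, limma). Without WT replicate 6, the WT mouse with the lowest level, it was 0.12 (adjusted p = 0.0491, limma). Within slide 1 the difference was 0.24 (6 WT against 2 Dgcr8+/- mice) and within slide 2 it was 0.10 (2 against 6).

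The 2 probes of miR-101a-3p differed between genotypes by 0.15 and 0.13 on the log2 scale. miR-101c, whose sequence lies within miR-101a-3p, went from 9.88 ± 0.07 to 10.03 ± 0.10 (SD, n = 8 each), a log2 fold change of 0.15 with a standard error of 0.05 (adjusted p = 0.0146, limma). Its 2 probes differed by 0.22 and 0.11. How far the miR-101c probes read miR-101a-3p molecules was not tested, so miR-101c is not a second independent measurement.

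The direction for miR-101a-3p was relative to the rest of the array, since without normalization between arrays its log2 signal was 0.32 lower in Dgcr8+/- mice (-0.32, adjusted p = 0.0295, limma) while the median of all 495 miRNAs moved by -0.39. In signal units it was 1337 ± 245 in WT and 1070 ± 163 in Dgcr8+/- mice (SD, n = 8 each, exact permutation p = 0.0204). Subtracting the median of all tested miRNAs left a difference of 0.10 after quantile normalization, 0.12 after cyclic loess and 0.07 without normalization. The call was also lost when arrays were brought to a common 75th percentile over all mouse probes (0.05, adjusted p = 0.657), with the authors' total gene signals (0.11, adjusted p = 0.254) and with no spot left out (0.17, adjusted p = 0.0855).

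**Figure D2:**
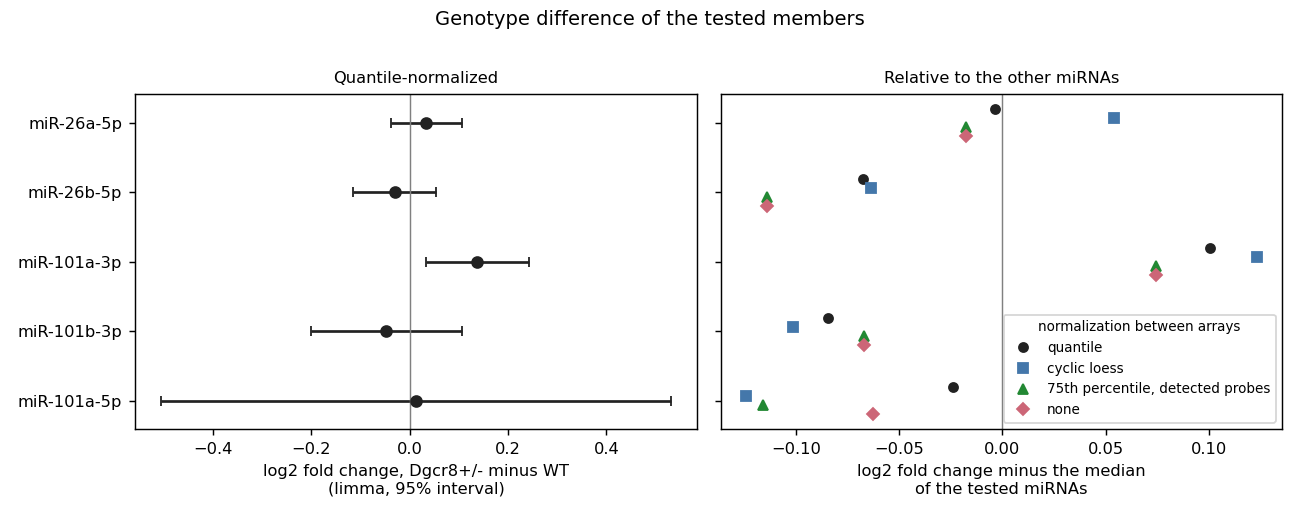
Left, log2 fold change (Dgcr8+/- minus WT) of the 5 tested members with limma's 95% interval after quantile normalization, where the interval of miR-101a-3p lies above 0 and the others span it. Right, the log2 fold change minus the median of all tested miRNAs under 4 normalizations between arrays. There miR-101a-3p lies to the right of 0 under each. miR-26b-5p, miR-101b-3p and miR-101a-5p lie to the left under each, and miR-26a-5p changes side under cyclic loess. A factor applied to a whole array cancels in this subtraction. No normalization and scaling to a common percentile therefore give the same value (0.07 for miR-101a-3p) for all members shown except miR-101a-5p. Agreement between those settings is thus not separate evidence.

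miR-101b-3p, the product of the second miR-101 locus, was not past the threshold. Its log2 signal ran from 4.93 over a median of 5.12 to 5.32 in WT mice and from 4.83 over 5.09 to 5.34 in Dgcr8+/- mice. The ranges overlapped almost fully, and the log2 fold change was -0.05 with a standard error of 0.07 and a 95% interval of -0.20 to 0.11 (adjusted p = 0.594, limma). Its 2 probes gave -0.11 and -0.03. Within slide 1 the difference was 0.09 and within slide 2 it was -0.10, so the slides differed in direction.

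The 2 miR-101 paralogs were then compared within each mouse, as the log2 signal of miR-101a-3p minus that of miR-101b-3p on the same array. Such a difference includes the unequal response of the probes, so only its shift between genotypes is read. It was 5.05 ± 0.12 in WT and 5.24 ± 0.09 in Dgcr8+/- mice (SD, n = 8 each), with ranges of 4.84 to 5.23 and 5.14 to 5.38. All 8 Dgcr8+/- mice lay above the WT median, although the ranges overlapped.

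The shift of miR-101a-3p against miR-101b-3p was 0.19 (95% interval 0.07 to 0.30, exact permutation p = 0.00218, adjusted p = 0.0109 over the 5 pairs compared, 2-sided). It was 0.19 without Dgcr8+/- replicate 2 (adjusted p = 0.0186 over the 5 pairs, exact permutation), and within the slides it was 0.15 and 0.19. The adjusted p rose to 0.0765 when groupings were permuted within slides, with a shift of 0.17, and to 0.0855 with no spot left out, with a shift of 0.20.

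**Figure D3:**
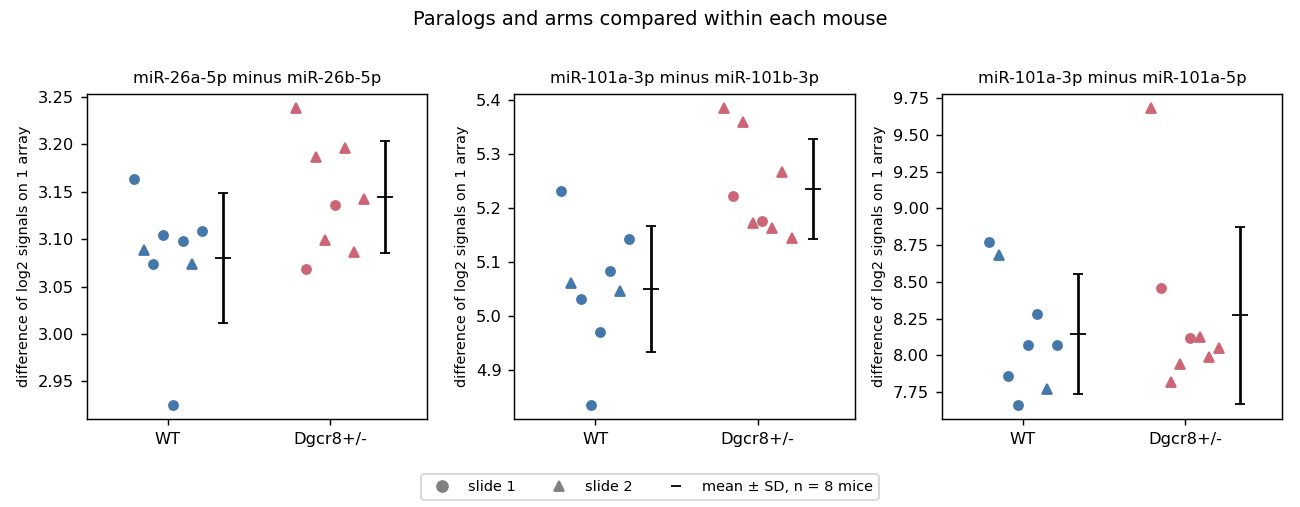
Difference of the log2 signals of 2 members on the same array (vertical axes, a separate scale for each panel) in 8 WT (blue) and 8 Dgcr8+/- (red) mice, circles for slide 1 and triangles for slide 2, with the mean ± SD beside each group. miR-101a-3p minus miR-101b-3p is shifted upward by 0.19 in Dgcr8+/- mice, while the other 2 differences overlap between genotypes, with 1 Dgcr8+/- mouse at 9.68 in the right panel.

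miR-101a-5p, the other arm of the Mir101a hairpin, was dim. It was detected in 8 of 8 WT and 7 of 8 Dgcr8+/- mice, and of its 4 probes 1 lay at the floor of 1 signal unit on every array. Its log2 signal was 1.39 to 2.49 with a median of 2.12 in WT mice and 0.54 to 2.41 with a median of 2.18 in Dgcr8+/- mice. The low end was Dgcr8+/- replicate 1, the mouse in which it was not detected.

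The log2 fold change of miR-101a-5p was 0.01 with a standard error of 0.25 and a 95% interval of -0.51 to 0.53 (adjusted p = 0.969, limma). That interval includes the change measured for the 3p arm. The shift of miR-101a-3p against miR-101a-5p was 0.12 with a 95% interval of -0.38 to 0.68 (exact permutation p = 0.685, adjusted p = 0.685 over the 5 pairs), and without Dgcr8+/- replicate 1 it was -0.07. The call changed with the processing, and the shift passed with normexp background correction (0.12, adjusted p = 0.00155, exact permutation over the 5 pairs) and with an offset of 16 signal units (0.13, adjusted p = 0.0486), but in the opposite direction with the authors' total gene signals (-0.88, adjusted p = 0.00932). With those total gene signals miR-101a-5p itself was 0.98 higher in Dgcr8+/- mice (adjusted p = 0.00299, limma). The normexp and offset settings add 50 and 16 signal units, while miR-101a-5p had a mean of 4.91 units in WT mice before normalization. Under them its own log2 fold change was 0.0055 (standard error 0.0151) and 0.0093 (standard error 0.0455). Those 2 passes thus carry the change of miR-101a-3p and cannot show that the arms differ.

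miR-26a-5p, the product of the Ctdspl and Ctdsp2 loci, differed little between genotypes. Its log2 signal was 13.47 to 13.54 with a median of 13.49 in WT mice and 13.47 to 13.63 with a median of 13.50 in Dgcr8+/- mice. The log2 fold change was 0.03 with a standard error of 0.03 (adjusted p = 0.407, limma), and the 95% interval ran from 2.64% lower (-2.64%) to 7.61% higher. Within slides the difference was 0.03 on each.

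Part of this narrow spread lies in the normalization. The 2 probes of miR-26a-5p were at places 11 to 14 and 19 to 22 of 4415 by brightness, where quantile normalization hands out a few fixed values, and each probe took 4 distinct values over 16 arrays. The miRNA had the same value, 13.47, in 4 WT and 2 Dgcr8+/- mice, and another, 13.50, in 3 mice of each genotype. Without normalization between arrays it was 13268 ± 2025 signal units in WT and 10051 ± 1731 in Dgcr8+/- mice (SD, n = 8 each, exact permutation p = 0.00171), a log2 difference of -0.41 beside the -0.39 of all tested miRNAs.

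miR-26b-5p, which has the same seed, was likewise not past the threshold. Its log2 signal was 10.37 to 10.57 with a median of 10.39 in WT mice and 10.28 to 10.47 with a median of 10.39 in Dgcr8+/- mice. The medians were alike and 3 Dgcr8+/- mice lay below the lowest WT mouse. The log2 fold change was -0.03 with a standard error of 0.04 (adjusted p = 0.529, limma), and the 95% interval ran from 7.72% lower (-7.72%) to 3.85% higher.

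Without normalization miR-26b-5p was 1598 ± 310 signal units in WT and 1121 ± 171 in Dgcr8+/- mice (SD, n = 8 each, exact permutation p = 0.000311), a log2 difference of -0.50. Relative to the median of all tested miRNAs this was -0.11, against -0.07 after quantile normalization. The shift of miR-26a-5p against miR-26b-5p was 0.06 with a 95% interval of -0.0015 to 0.13 (exact permutation p = 0.0552, adjusted p = 0.138 over the 5 pairs). It did not pass the threshold after quantile normalization, but passed with cyclic loess (0.12, adjusted p = 0.00233, exact permutation), and it was -0.0101 with the authors' total gene signals (adjusted p = 0.823).

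**Figure D4:**
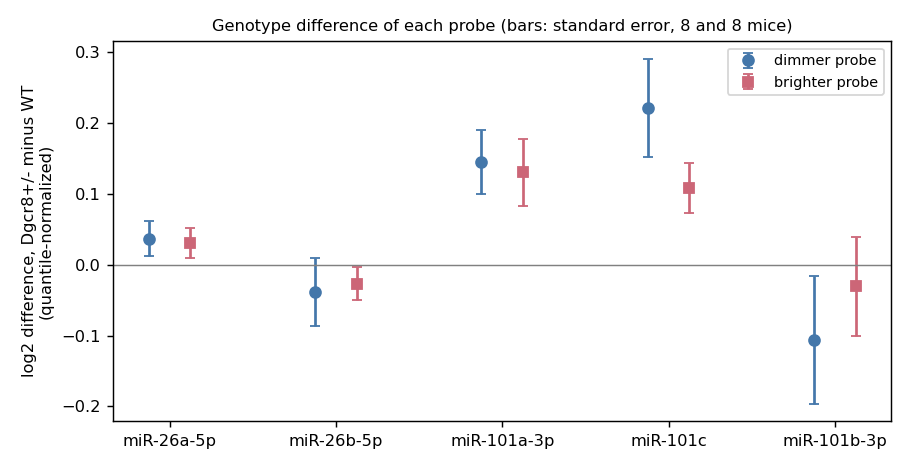
Log2 difference between genotypes (Dgcr8+/- minus WT, vertical axis) of each of the 2 probes of miR-26a-5p, miR-26b-5p, miR-101a-3p, miR-101c and miR-101b-3p after quantile normalization, circles for the dimmer and squares for the brighter probe, bars for the standard error over 8 and 8 mice. Both probes of miR-101a-3p (0.15 and 0.13) and of miR-101c (0.22 and 0.11) are above 0 on this scale, and without normalization between arrays all 10 probes are lower in Dgcr8+/- mice.

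miR-26b-3p, the other arm of the Mir26b hairpin, was detected on 0 of 16 arrays and was not tested. Its 4 probes gave a log2 signal of 1.81 to 2.74 in WT and 2.28 to 2.65 in Dgcr8+/- mice, not above background. The shift of miR-26b-5p against it, -0.11 with a 95% interval of -0.42 to 0.20 (exact permutation p = 0.475, adjusted p = 0.594 over the 5 pairs), thus compares miR-26b-5p with background. The opposite arms of the other loci, miR-26a-1-3p, miR-26a-2-3p and miR-101b-5p, were also detected on no array.

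Between families, the mean of miR-26a-5p and miR-26b-5p minus the mean of miR-101a-3p and miR-101b-3p shifted by -0.04 (95% interval -0.16 to 0.08, exact permutation p = 0.449, adjusted p = 0.594 over the 5 pairs). The within-slide values were -0.15 and -0.01. The shift between the miR-26 and miR-101 families thus did not pass, and its interval spans 0. The miR-101 mean also combines 2 paralogs with log2 fold changes of 0.14 (miR-101a-3p) and -0.05 (miR-101b-3p).

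How the members varied among mice was described by correlations over the 16 arrays after each genotype's mean was subtracted. These points share normalization and array quality, and perhaps reading of 1 paralog by the probes of another, so no test is given. miR-101a-3p and miR-101b-3p had a Pearson r of 0.70 (Spearman rho 0.68), and miR-26a-5p and miR-26b-5p an r of 0.33 (rho 0.48). Dgcr8+/- replicate 2 was the highest Dgcr8+/- mouse in both miR-101a-3p and miR-101b-3p, and their r without it was not computed. The arms miR-101a-3p and miR-101a-5p had an r of 0.31 (rho 0.40). Between the families r ran from -0.62 (miR-26a-5p with miR-101a-5p, rho -0.285) to 0.55 (miR-26b-5p with miR-101a-3p, rho 0.44). Within that range miR-26a-5p had an r of -0.53 with miR-101b-3p (rho -0.33).

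By the same measure, the miRNAs most like miR-101a-3p were miR-369-3p (r = 0.90), miR-3962 (0.89) and miR-181c-5p (0.87), but without Dgcr8+/- replicate 2 these values were 0.70, 0.66 and 0.58. Those most like miR-26b-5p were miR-27b-3p (r = 0.92), miR-338-5p (0.81) and miR-17-5p (0.77). For miR-101b-3p they were miR-136-3p (0.87), miR-33-5p (0.84) and miR-324-3p (0.84). For miR-26a-5p they were miR-3098-5p (0.80), miR-7070-5p (0.76) and miR-709 (0.72), and for miR-101a-5p miR-665-3p (0.87), miR-301b-3p (0.77) and miR-153-5p (0.77). The values for miR-101a-5p include Dgcr8+/- replicate 1, in which it was not detected, and by rank (Spearman rho) they were 0.54, 0.74 and 0.53. Those for miR-26a-5p rest on few distinct levels, since it held 13.47 on 6 arrays and 13.50 on another 6.

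Other miRNAs on the array share part of a member's seed. miR-144-3p, an erythroid miRNA, has the same bases 2 to 7 as miR-101a-3p, and its log2 fold change was -0.15 with a standard error of 0.11 (adjusted p = 0.217, limma). miR-582-5p has the same bases 2 to 7 as miR-101b-3p and was lower in Dgcr8+/- mice, by a log2 fold change of -0.61 with a standard error of 0.10 (adjusted p = 0.000139, limma). miR-6371, with bases 2 to 7 of the miR-26 seed, and miR-26a-2-3p and miR-7039-3p, with the seed of miR-26b-3p, were not tested.

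A list of 18 other miRNAs reported elsewhere to act on Ezh2 gives the wider group. On these arrays 16 were tested, 3 were lower, 2 were higher and 11 did not pass, beside the 56.2% called over all tested miRNAs, and miR-214-3p and miR-217-5p were detected on no array. miR-25-3p, a member of the miR-92 seed family, was lower by a log2 fold change of -0.43 (adjusted p = 0.000331, limma). miR-139-5p was lower by -0.25 (adjusted p = 0.00813) and let-7g-5p, of the let-7 family that marks differentiated cells, by -0.11 (adjusted p = 0.0317). miR-30d-5p was higher by 0.25 (adjusted p = 0.000155) and miR-138-5p, a brain-enriched miRNA, by 0.21 (adjusted p = 0.00123). The median log2 fold change of the 16 was -0.04, against 0.04 over all tested miRNAs.

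The LV wall was checked by miRNAs known to mark its cells. Of 5 miRNAs of multiciliated cells, such as ependymal cells, miR-34b-5p, miR-34b-3p, miR-34c-5p and miR-449a-5p were detected in all mice and miR-449c-5p in none. None of the 4 passed the threshold after quantile normalization, with log2 fold changes of 0.28, 0.29, 0.35 and 0.15 in that order (all above 0, lowest adjusted p = 0.0594, limma). The summed quantile-normalized signal of all 5 was 530 to 1257 units in WT and 849 to 1530 in Dgcr8+/- mice. All sums in this paragraph are on that scale, unlike the unnormalized signal units given above. Of the choroid plexus pair, miR-204-5p was lower (-0.29, adjusted p = 0.0136, limma) and miR-211-5p did not pass. Their summed normalized signals were 533 to 733 in WT and 403 to 624 in Dgcr8+/- mice. Of 3 red blood cell miRNAs, miR-486a-5p was lower (-0.66, adjusted p = 0.000599, limma). It was detected in 8 of 8 WT but only 3 of 8 Dgcr8+/- mice, so it met the detection filter through the WT mice. The sums of the 3 were 531 to 889 in WT and 467 to 725 in Dgcr8+/- mice. They are mostly miR-451a (mean log2 signal 9.27 and 9.15), which did not pass. The lists for neural tissue (3 tested, miR-128-3p lower), vessel wall (3 tested, miR-143-3p higher), oligodendrocytes (2 tested) and immune cells (3 of 4 tested) held no other call. Their part in the difference of miR-101a-3p was not tested.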

How the data were processed

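Total RNA from the LV wall was labelled with Cy3 and hybridised by the authors to a 1-colour Agilent mouse miRNA array, with 1 array per mouse. The deposited scanner files hold spot intensity values, background-corrected by Agilent Feature Extraction (version 10.5.1.1 per the labels, 10.7.3.1 per the file headers). A second deposited table holds a total gene signal per miRNA, an intensity on the linear scale that equals the scanner's own and was used as an alternative. No spot was saturated.

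Here control spots and spots marked as outliers (2.67% of spots) were left out, spots were averaged per probe, and 4415 probes were quantile-normalized. Probes were then averaged per miRNA and a floor of 1 signal unit was set before log2. miRNAs detected on at least 8 of 16 arrays were tested with limma 3.58.1 in R 4.3.3 without covariates. The methods name quantile normalization and a t-test, and the latter was run as an alternative. Pairs of members and single values were tested by 2-sided exact permutation tests over 12870 groupings, whose smallest p is 0.000155. Groups follow the genotype in the sample labels. The number of arrays limits the precision. The code was tested on simulated data.

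The members, the lists and the tests were chosen with earlier results of these data known. Named were the 6 members, other arms of their families, array miRNAs sharing a seed, the Ezh2 and cell type lists, and the 3 miRNAs most like each tested member. Alternatives changed the normalization, background correction, probe summary, spot filter, floor, detection filter, test, slide term, replicate block and the array left out, and scaling to labelling spike-ins was added after the data were seen.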

Additional observations from a re-analysis of the deposited data

Results flagged for a closer look

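In 6 of 20 groups of 8 mice (5 tested members and 5 pairs in 2 genotypes) 1 mouse lay far from the other 7, where chance gives about 1 in 20. That rate is only a rough guide, since the pairs are built from the same members and some mice are counted for both. The values of miR-26a-5p are also tied between arrays by the normalization. miR-101a-3p in Dgcr8+/- replicate 2 was 10.56 on the log2 scale, against 10.22 to 10.38 in the other Dgcr8+/- mice, and this was also the array with the dimmest hybridisation spike-ins. miR-101a-5p in Dgcr8+/- replicate 1 was 0.54, against 2.10 to 2.41, and in the same mouse miR-101a-3p minus miR-101a-5p was 9.68, against 7.82 to 8.46. miR-26b-5p in WT replicate 5 was 10.57, against 10.37 to 10.42, and there miR-26a-5p minus miR-26b-5p was 2.93, against 3.07 to 3.16. miR-26a-5p in WT replicate 1 was 13.54, against 13.47 to 13.50.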

How the results depend on the processing

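With signals not normalized between arrays, log2 fold changes were -0.41 (miR-26a-5p), -0.50 (miR-26b-5p), -0.32 (miR-101a-3p), -0.45 (miR-101a-5p) and -0.46 (miR-101b-3p), 4 members were lower and 0 higher, and 293 of all tested miRNAs were lower and 0 higher. Scaled to labelling spike-ins they were -0.40, -0.50, -0.31 (adjusted p = 0.0647, limma), -0.43 and -0.45, with 3 members lower and 0 higher and 264 of all tested lower and 0 higher. With the 75th percentile of detected probes miR-26a-5p was 0.13 (adjusted p = 0.00537), miR-26b-5p 0.0302 and miR-101b-3p 0.0772, with 2 members higher. With the 75th percentile of all mouse probes miR-26a-5p was -0.0465, miR-101a-3p 0.0456 and miR-101a-5p -0.13, with 0 members higher. The median of all tested miRNAs moved with these scalings, to -0.39, -0.38, 0.14 and -0.03, from 0.04. The authors' total gene signal gave 0.0455 for miR-26b-5p, 0.11 for miR-101a-3p and 0.98 for miR-101a-5p (adjusted p = 0.00299), and pair shifts of 0.0455 (miR-26b-5p minus miR-26b-3p), -0.88 (miR-101a-3p minus miR-101a-5p, adjusted p = 0.00932, exact permutation), -0.0101 (miR-26a-5p minus miR-26b-5p) and 0.11 (miR-26 minus miR-101). With no spot left out miR-101a-3p was 0.17 and its shift against miR-101b-3p 0.20, neither past the threshold, and 0 members were higher. With the slide as a block that shift was 0.17 (adjusted p = 0.0765, exact permutation). miR-101a-5p was -0.0725 with cyclic loess and -0.0511 with probes averaged on the log2 scale. The shift of miR-101a-3p minus miR-101a-5p also passed, in the other direction, with normexp (0.12) and an offset of 16 (0.13). Both settings add a constant larger than the signal of miR-101a-5p, so these passes do not compare the arms. miR-26a-5p minus miR-26b-5p passed with cyclic loess (0.12). The causes were not tested.

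Leaving out each mouse in turn gave 0.02 to 0.04 for miR-26a-5p, -0.04 to -0.0085 for miR-26b-5p, 0.10 to 0.15 for miR-101a-3p (highest adjusted p = 0.0491), -0.0785 to 0.22 for miR-101a-5p, whose sign turned in 8 of 16, and -0.09 to -0.02 for miR-101b-3p. The pair shifts ran from -0.18 to -0.01 (miR-26b-5p minus miR-26b-3p), -0.0731 to 0.21 (miR-101a-3p minus miR-101a-5p), 0.04 to 0.08 (miR-26a-5p minus miR-26b-5p), 0.16 to 0.21 (miR-101a-3p minus miR-101b-3p, highest adjusted p = 0.0249) and -0.07 to -0.01 (miR-26 minus miR-101). The count of members higher stayed at 1, and the counts over all tested miRNAs ran from 130 to 151 lower and 126 to 170 higher.

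The replicate numbers of the labels are shared by the genotypes without a stated meaning, and the deviations of same-numbered mice correlated between -0.14 and 0.50, over 0.1 in 5 of 8 pairs, with 3 of 8 WT mice closest to their own number. With the replicate block miR-101a-3p was 0.14 (adjusted p = 0.0425, limma), 140 of all tested miRNAs were lower and 147 higher, and no call on a member or pair changed. miR-26b-3p and miR-101a-5p lay at or near background, which limits both comparisons of arms.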
